A study of Mus musculus with 2 samples.

Results

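The early absorptive cells described here were intestinal epithelial cells chosen by their content of Fabp1 mRNA, which encodes the liver-type fatty acid-binding protein, in 2 single-cell RNA-seq libraries from mice on day 7 of 2.5% dextran sulfate sodium (DSS), a salt in the drinking water that injures the gut lining. Of 12554 cells that passed the filter, 1776 met the rule. They numbered 986 of 7401 cells in the wild type (WT) library and 790 of 5153 cells in the library of mice with the MG53 transgene (MG53-TG). A member needed at least 1354 unique molecular identifiers (UMIs, each a captured mRNA molecule), at least 200 genes, at most 25% mitochondrial UMIs and at least 0.5% of its UMIs from Fabp1. It was left out if Apoa4 and Apoc3, genes of lipid-exporting enterocytes, reached 0.5% of its UMIs together, or if the ileal gene Fabp6 reached 0.1%. Cells with 0.5% or more from 5 goblet genes, 5% or more from defensins and Lyz1, 5 or more of 8 cell cycle genes detected, or 3 or more of 5 villus tip genes detected were left out too. Members were thus selected on these measured values, and their levels of the genes in the rule are a description.

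MG53-TG mice carried MG53, also called Trim72, as a transgene expressed throughout the body, so that a difference between the libraries is not tied to the gut epithelium. Their WT littermates were the control, and both genotypes received DSS, so neither library shows uninjured tissue. Per the labels, crypts were taken apart with an enzyme, and live EpCAM-positive cells were sorted. With 1 library per genotype there were no replicates and no test was made. The number of mice behind each library is not stated in the labels, and the Cell Ranger version and the barcode filtering also differed between the libraries, so that genotype, library and processing cannot be told apart. Levels are given as CPM, counts scaled to equal totals of UMIs summed over the cells of a library, and every interval is a 95% interval that covers counting error only. No member barcode occurred in both libraries.

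Absorptive enterocytes arise from dividing progenitors in the crypt and mature as they move up the villus. On the way they first gain genes for the capture and handling of fatty acids and vitamin A, then brush border hydrolases and transporters, and later the apolipoproteins of chylomicron export. Fabp1 binds long-chain fatty acids in the cytosol, Reg1 is a secreted lectin of the regenerating gut, and S100g (calbindin-D9k) carries calcium across the cell. Tuft cells are a separate, chemosensory cell type of the same epithelium.

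The rule also selected tuft cells. A cell was placed in the tuft gate when at least 4 of 8 tuft genes (among them Dclk1, Trpm5, Pou2f3, Avil, Lrmp, Sh2d6 and Rgs13) were detected. In WT, 121 of 986 members (12.3%, 10.3 to 14.5) lay in it. In MG53-TG, 159 of 790 members (20.1%, 17.4 to 23.1) did, which was 7.85 points more (4.33 to 11.4). Among all cells after the filter, the tuft gate held 296 of 7401 in WT (3.999%, 3.56 to 4.47). It held 329 of 5153 in MG53-TG (6.38%, 5.73 to 7.09), so that its share was higher over the whole MG53-TG library too. No member had 4 or 5 of these genes: 0 of 986 and 0 of 790 cells lay between those with up to 3 and those with at least 6 (exact upper bounds 0.373% and 0.466%). The summed level of the 8 genes was 12522 CPM in WT against 14080 in MG53-TG inside the gate, against 4.03 and 4.39 CPM in the other members. Fabp1 stood at 17245 and 17790 CPM inside the gate, whereas 10 enterocyte markers summed to 3853 and 2556 CPM inside the gate against 16900 and 19902 CPM outside it. The T cell gate (3 or more of 8 T cell genes detected) held 13 WT and 4 MG53-TG members, of which 4 WT cells were in both gates.

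**Figure D1:**
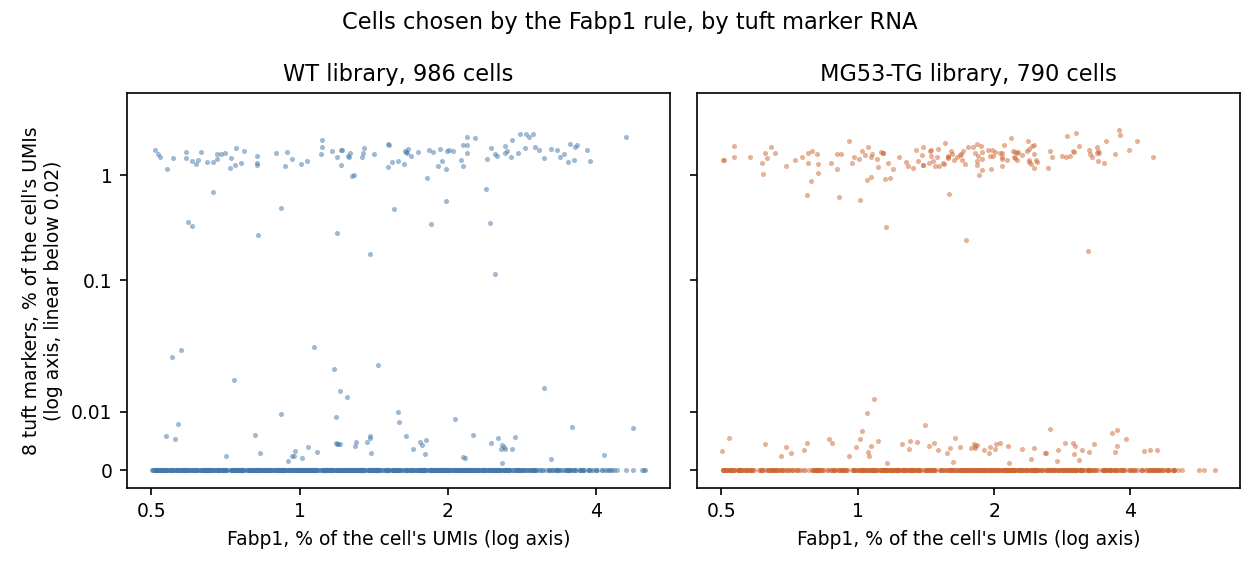
Each point is 1 member, placed by its Fabp1 share of UMIs (x axis, percent, log scale) and the share of 8 tuft genes (y axis, percent, log scale, linear below 0.02), with the WT library on the left and the MG53-TG library on the right. A band of 121 WT and 159 MG53-TG cells sits above the rest over most of the Fabp1 range.

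The label was therefore kept only for members outside both gates, 856 WT and 627 MG53-TG cells, and the values below are for these cells unless said otherwise. That restriction was chosen after the data were seen. These cells were deeply sequenced, with medians per cell of 19876 UMIs and 3630 genes for WT and of 24338 UMIs and 4148 genes for MG53-TG. All 10 enterocyte markers were detected in both libraries, and their summed level was above the 3603 and 3082 CPM of cells in the T cell gate and the 3009 and 3080 CPM of goblet cells (over 5% of UMIs from the goblet genes of the rule). It was below the 64462 and 63056 CPM of the cells that the rule left out only for Apoa4 and Apoc3. Stem cell markers summed to 38.4 and 25.2 CPM, cell cycle markers to 37.5 and 36.9 CPM, and the 4 fibroblast markers were at 0. Goblet markers summed to 651 and 602 CPM, Paneth markers to 732 and 275 CPM and enteroendocrine markers to 191 and 246 CPM. The part of free RNA in these sums was not tested. Of 6 colonocyte markers, Car1 and Hoxb13 were at 0 in both libraries, and the other 4 summed to 152 CPM in WT and 153 CPM for MG53-TG, mostly from the chloride exchanger gene Slc26a3 (146 and 147 CPM). The proximal factor Gata4 was at 40.1 CPM in WT against 47.0 in MG53-TG.

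Of the 3 genes that named the cells, Fabp1 (chromosome 6, 71199827 to 71205023, GRCm38) was detected in every member by construction and stood at 16125 CPM in WT against 20335 in MG53-TG. Its median share outside the gates was 1.32% of UMIs in WT and 1.71% in MG53-TG. In cells of the T cell gate, which should lack it, it was at 1666 and 1522 CPM, and in WT barcodes of 10 to 100 UMIs, which are mostly empty droplets, at 2361 CPM. Reg1 (chromosome 6, 78422711 to 78428667) was similar in the libraries, at 1839 and 1794 CPM, and was seen in 64.0% of WT and 64.6% of MG53-TG members. After each cell was thinned to 1354 UMIs, these shares were 31.1% and 37.2%, against 3.57% and 3.75% in the T cell gate (median depth 2912 and 3522 UMIs before thinning). S100g (chromosome X, 162961992 to 162964599) marked few of the cells: it was seen in 206 of 856 WT and 227 of 627 MG53-TG members, or 4.67% and 7.66% after thinning, against 0.557% and 1.73% in the T cell gate. Its level was 54.3 and 88.3 CPM, and 3 cells held 27.5% of its WT UMIs and 11.2% of its MG53-TG UMIs. WT empty droplets held 78.4 CPM of S100g, above the level of the WT members, and the part of free RNA was not tested.

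Members made up 13.3% of WT cells (12.6 to 14.1) and 15.3% of MG53-TG cells (14.4 to 16.3), a difference of 2.01 points (0.751 to 3.28). Outside both gates the shares were 11.6% and 12.2%, which differed by 0.602 points (-0.555 to 1.77), an interval that includes 0 and covers counting error only. This difference ran from -0.779 points with a mitochondrial limit of 50% to 1.86 points with a Fabp1 minimum of 1%. With the limit of 50% in place of 25%, the difference over all members was -0.0604 points. Cells just inside the Fabp1 limit (0.5 to 0.55%, 37 WT and 28 MG53-TG cells) had 6215 and 4743 CPM of Fabp2, and those just outside it (0.45 to 0.5%, 26 and 9 cells) had 5459 and 7447 CPM.

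Members outside the gates were spread along the Fabp1 share. In WT, 294 cells had 0.5 to 1% of UMIs from Fabp1, 328 had 1 to 2%, 217 had 2 to 4% and 17 had 4% or more. In MG53-TG these numbers were 140, 233, 207 and 47. For levels along this share, CPM were taken over UMIs other than Fabp1, and a gene was counted when it differed at least 2-fold between the lowest and the highest range in both libraries (pseudocount 1 CPM). Of 2691 genes tested, 25 (0.929%) were higher and 20 (0.743%) were lower at the high end. With 2 to 4% as the highest range, since only 17 WT cells lay above it, the numbers were 7 and 8.

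The 10 genes with the largest differences toward the high end, in both libraries, were Cyp4a10, Acaa1b, Ugt2b5, Sult6b2, Aldh1a7, Apoc2, Rbp2, Aldh1a1, Hsd17b6 and Dhrs1. Rbp2, the cellular retinol-binding protein of the enterocyte, went from 4876 to 15618 CPM in WT and from 5522 to 17288 CPM in MG53-TG. Aldh1a1, which makes retinoic acid, went from 81.1 to 242 CPM in WT and from 98.1 to 409 CPM in MG53-TG. Cyp4a10, a fatty acid omega-hydroxylase and a classical target of PPARα, went from 7.95 to 68.9 CPM in WT and from 15.7 to 111 CPM in MG53-TG. Acaa1b, a peroxisomal thiolase, went from 10.2 to 85.4 CPM and from 16.7 to 93.2 CPM. Ugt2b5 and Sult6b2 encode conjugating enzymes. By list, 4 of 6 tested vitamin A genes were at least 2-fold higher in both libraries, with medians of 1.17 and 1.16 on the log2 scale. Among fatty acid oxidation and PPAR target genes, 20 of 22 were higher in both libraries (2 of them at least 2-fold), and among fatty acid uptake and binding genes 7 of 8 (1 of them at least 2-fold). Glutathione and xenobiotic genes were higher in 7 of 11 cases (3 at least 2-fold), and Reg lectins and antimicrobial products in 6 of 7 (2 at least 2-fold). Over all tested genes, 807 of 2691 were higher in both libraries. Cyp4a10, Acaa1b, Ugt2b5, Aldh1a7 and Hsd17b6 were under 50 CPM in the lowest range of both libraries. They reached that minimum only at higher Fabp1 shares, and a gene that enters so had to be higher there. Their place among the leading genes and these list counts thus describe the tested genes and support no difference from other genes. With 2 to 4% as the highest range, 2 of 6 vitamin A genes passed 2-fold (medians 0.74 and 0.69), and 2 of 21 fatty acid oxidation genes, 0 of 7 fatty acid uptake genes, 1 of 12 glutathione and xenobiotic genes and 0 of 8 Reg genes did. With 4% or more as the highest range, the median over all tested genes was -0.0824 in WT and -0.0500 in MG53-TG.

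At the low end the leading genes were Slc34a2, a phosphate transporter, Enpp7, an alkaline sphingomyelinase, Clca3b, Csrp2, Ccnd1, Impdh2, Ccdc34, Guca2a, Ptma and Ptms. Apart from Guca2a and Ptma, they were under 50 CPM in the highest range of both libraries. They met the minimum of 50 CPM only through the lowest range, and a gene that enters so had to be higher there. Their place in this list supports no difference from other genes. Ccnd1, cyclin D1, went from 74.9 to 5.51 CPM in WT and from 61.2 to 16.4 CPM in MG53-TG along the share. Clca3b went from 80.8 to 8.26 CPM and from 78.5 to 10.2 CPM. Slc34a2 stood at 19.2 CPM in the lowest WT range and was listed at 0 in the 17 WT cells of the highest, and in MG53-TG it went from 54.2 to 5.48 CPM. Ribosomal protein genes were slightly lower at the high end, 76 of 80 in both libraries against 1152 of 2691 over all tested genes, and none of them passed 2-fold. Of 11 brush border digestive enzymes 2 were higher and 6 lower in both libraries, which is near the shares over all tested genes.

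**Figure D2:**
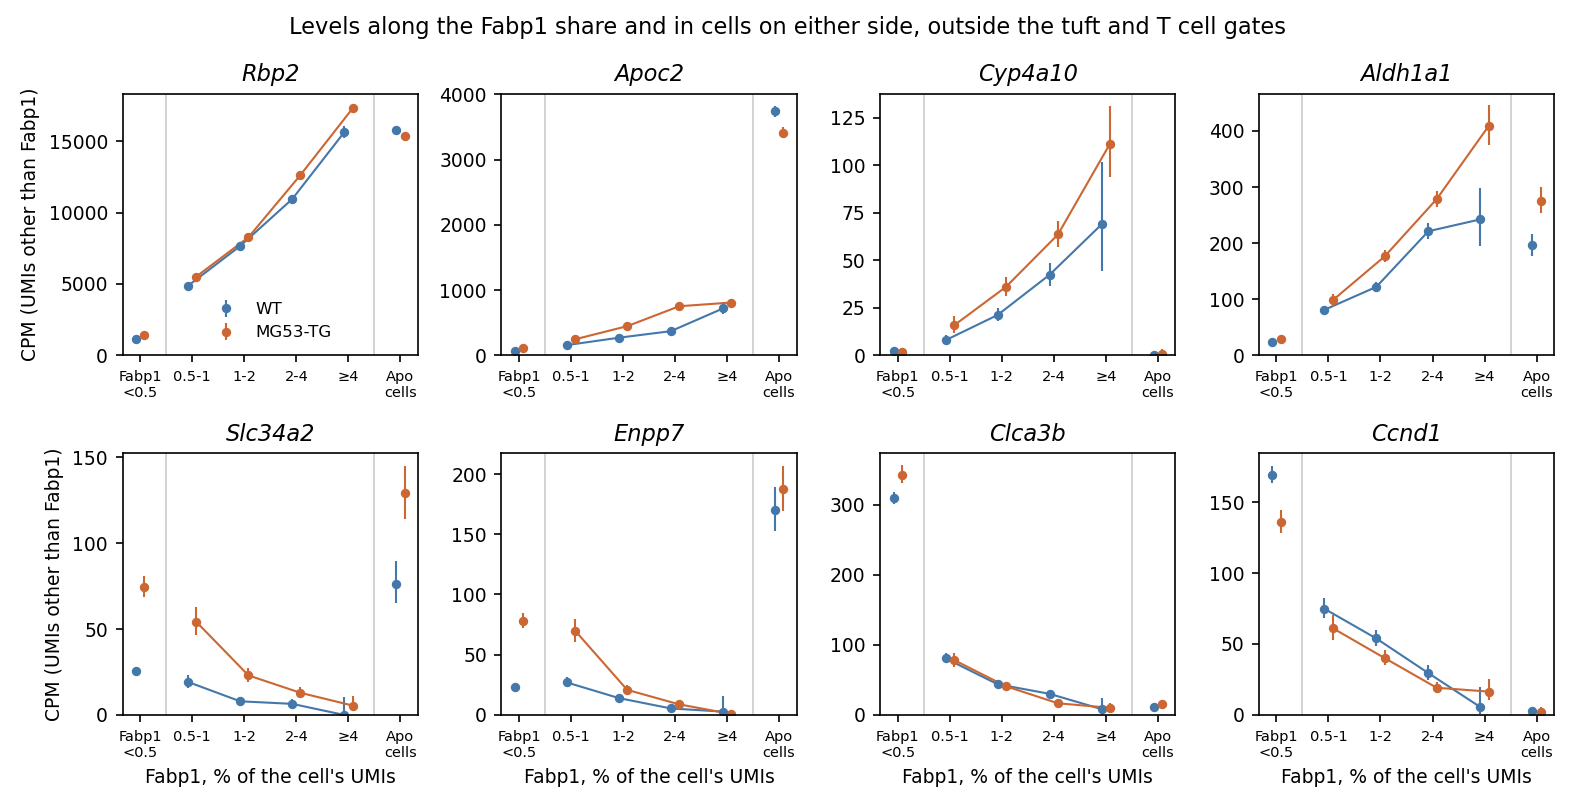
Levels of 8 genes (y axis, CPM over UMIs other than Fabp1, with 95% Poisson intervals) in cells outside the gates, from cells below the Fabp1 limit through 4 ranges of the Fabp1 share (x axis, percent of UMIs) to the cells left out for Apoa4 and Apoc3. Rbp2, Apoc2, Cyp4a10 and Aldh1a1 were higher and Slc34a2, Enpp7, Clca3b and Ccnd1 lower at the high end of the share in both libraries, and Cyp4a10 was near 0 in the Apoa4 and Apoc3 cells.

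Cells that missed only the Fabp1 limit (1270 WT and 580 MG53-TG cells outside the gates) were a mixture, and levels against them were again taken over UMIs other than Fabp1. Of 3012 genes tested, 119 (3.95%) were at least 2-fold higher in members in both libraries and 216 (7.17%) lower. The genes lower in members included the hormones Ghrl, Nts, Sst, Cck and Sct, the plasma cell genes Igkc, Jchain and Igha, and the stem cell gene Olfm4, which was at 853 and 1560 CPM in these neighbours and at 15.9 and 6.63 CPM in members. All of these were under 50 CPM in members. They met the minimum of 50 CPM only through the neighbours, where they had to be higher. Higher in members were Rbp2 (1123 against 7774 CPM in WT, 1421 against 9993 CPM in MG53-TG), Sult6b2, Gsta1, Adh6a, Aldh1a1, Papss2, Gstm3, Reg1, Rdh7 and Il18. Of these, Sult6b2, Aldh1a1, Gstm3 and Rdh7 met the minimum of 50 CPM only through members, where they had to be higher. Gsta1, a glutathione transferase, stood at 70.1 and 68.8 CPM in the neighbours and at 452 and 535 CPM in members.

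Cells left out only for Apoa4 and Apoc3 (129 WT and 113 MG53-TG cells) differed from members in more genes. Of 2813 genes tested, 355 (12.6%) were at least 2-fold higher in members and 238 (8.46%) lower, in both libraries, with CPM over UMIs other than Apoa4 and Apoc3. Ribosomal protein genes were higher in members, 78 of 80 at least 2-fold, with medians of 2.46 in WT and 2.09 in MG53-TG on the log2 scale. Ccnd1 was at 2.42 and 2.34 CPM in these neighbours and at 52.5 and 34.3 CPM in members, and Ifitm2, Ehf, Mrps28, Dmbt1, Npm3, Ccnd2, Rpl12 and Hspd1 had the same sign. Apart from Dmbt1 and Rpl12, these genes were under 50 CPM in the neighbours of both libraries. They met the minimum of 50 CPM only through members, where they had to be higher. Lower in members were 13 of 15 tested brush border digestive enzymes by at least 2-fold, of which 11 reached 50 CPM in members and the rest only in these neighbours, where they had to be higher. The leading single genes lower in members were Slc5a12, Cubn, Bst1, Pck1, Cyp2b10, Slc7a15, Selenop, Cyp3a11, Sectm1b and Dnase1. Apart from Selenop, they were under 50 CPM in members and met that minimum only through these neighbours, where they had to be higher. Selenop, a plasma selenium carrier, stood at 3259 and 2859 CPM in the neighbours and at 297 and 304 CPM in members. Mitochondrial UMIs moved with this contrast, with medians of 11.4% and 11.97% in the neighbours against 6.30% and 6.27% in members, and their part in it was not tested.

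Between the genotypes, genes were counted when they had at least 30 UMIs in both libraries together, at least 50 CPM in 1 of them and a ratio of at least 1.5-fold. Over all members, 77 of 2503 genes (3.08%) were higher in MG53-TG and 9 (0.36%) lower. Outside the gates, 30 of 2392 genes (1.25%) were higher and 8 (0.334%) lower, and with cells thinned to 1354 UMIs 115 and 22. With at least 10 UMIs and no CPM minimum, 743 genes were higher and 736 lower. The number of genes tested changes with these settings, so that these counts are not out of the 2392. Named genes also had the same sign in each Fabp1 range of at least 50 cells per library. The larger count over all members included tuft genes, since Kctd12, Alox5, Krt23, Fyb, Pygl and Lrmp were among its 12 leading genes and none of them among those outside the gates. In the tuft gate itself 44 of 2845 genes (1.55%) were higher and 104 (3.66%) lower.

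The transgene checked the labels. Trim72 (chromosome 7, 128003949 to 128011033) had 10 UMIs in the WT members and 1117 in those of MG53-TG, or 0.559 and 69.0 CPM, and was detected in 340 of 627 MG53-TG members. It was found in MG53-TG cells of the T cell gate too, at 48.1 CPM, and in WT empty droplets at 11.2 CPM.

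Of the 11 named genes that followed Trim72, Mthfd2, Asns and Nars were in the list of Atf4 amino acid response genes. Atf5, Eif4ebp1, Cth and Slc7a1, which are not in that list, are set beside them for their known roles, a grouping made after their values were seen. Atf5, a transcription factor of that response, was at 39.2 CPM in WT against 132 in MG53-TG, a log2 ratio of 1.75 (1.63 to 1.88). Mthfd2, a mitochondrial folate enzyme, was at 30.7 and 81.9 CPM (1.42, 1.27 to 1.56). Eif4ebp1, a brake on cap-dependent translation, was at 74.2 and 179 CPM (1.27, 1.18 to 1.37). Asns, which makes asparagine, was at 87.1 and 191 CPM (1.13, 1.04 to 1.22). Cth, the last enzyme of cysteine synthesis, was at 120 and 250 CPM (1.06, 0.980 to 1.13), Slc7a1, a cationic amino acid transporter, at 30.1 and 57.0 CPM, and Nars, the asparagine tRNA ligase, at 368 and 673 CPM (0.87, 0.825 to 0.914). In cells of the T cell gate Asns was at 39.2 and 41.4 CPM and Atf5 at 15.04 and 23.1 CPM. The other named genes were Hsd17b13, a lipid droplet protein (59.3 and 136 CPM), Apoc2, the cofactor of lipoprotein lipase (265 and 534 CPM), Nfkbiz (34.2 and 63.8 CPM) and Tbx3 (35.0 and 60.3 CPM). Atf5, Mthfd2, Slc7a1, Nfkbiz and Tbx3 reached the minimum of 50 CPM through MG53-TG alone. A gene that enters so had to be higher there. In WT empty droplets Apoc2 was at 766 CPM and Tbx3 at 74.6 CPM, above their levels in the members of both libraries. Mthfd2 (33.5 CPM) and Nfkbiz (39.9 CPM) were above their WT level there and Slc7a1 (29.1 CPM) near it, and the part of free RNA was not tested. Gip, an incretin hormone, was at 15.8 and 169 CPM and is set apart, since 3 cells held 95.9% of its MG53-TG UMIs and its sign was not the same in every Fabp1 range. It was at 1296 CPM in WT empty droplets. The remaining 17 genes past 1.5-fold included the tRNA ligase genes Lars, Sars and Aars, the amino acid transporter gene Slc38a2, the metallothionein genes Mt1 and Mt2, and Aldh1a1, Slc27a2, Crot, Me1, Gstm3, Cdkn1a, S100g, A1cf, Abhd3, Gfpt1 and March5. Of them, Aars, Me1, A1cf, Abhd3 and March5 also reached 50 CPM through MG53-TG alone.

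**Figure D3:**
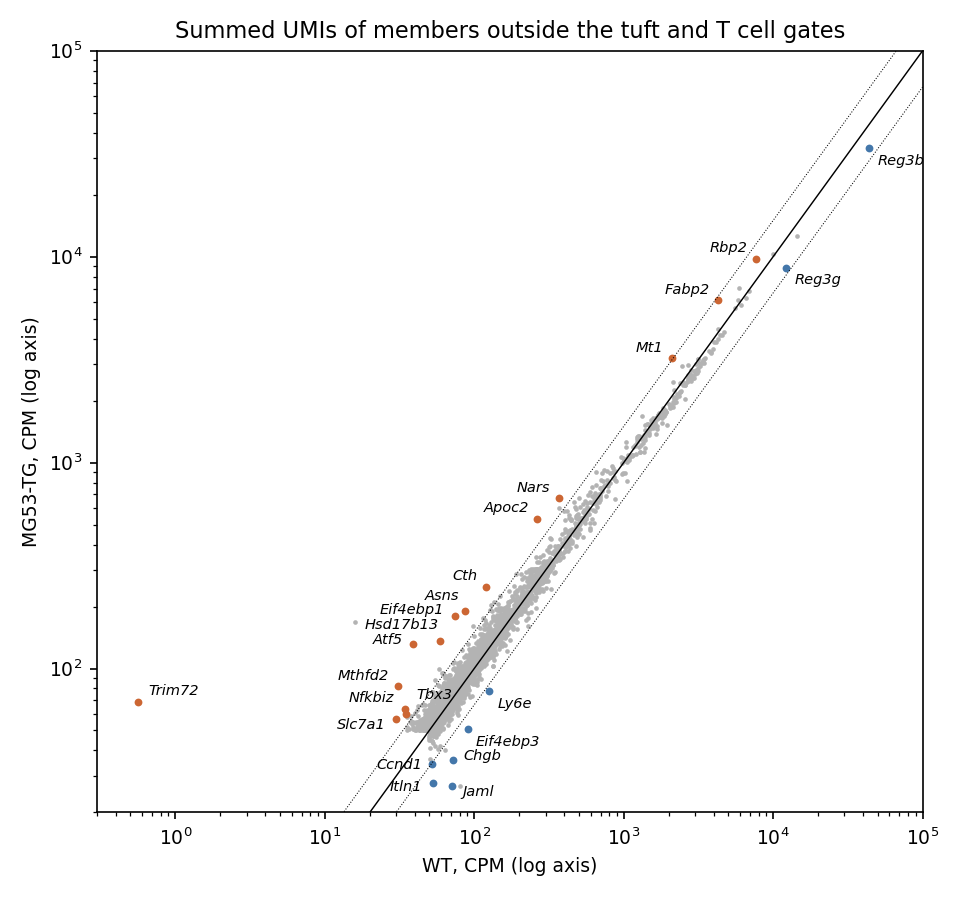
Each point is a tested gene in members outside the tuft and T cell gates, with its level in WT (x axis, CPM, log scale) and in MG53-TG (y axis, CPM, log scale). The solid line marks equal levels and the dotted lines a 1.5-fold ratio, and coloured points are genes named in the text, with Trim72 at 0.559 and 69.0 CPM at the far left.

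The 21 genes of the Atf4 amino acid response list gave the largest median of the 33 lists outside the gates, 0.77 on the log2 scale (list medians use a pseudocount of 1 CPM), where the median over all genes with 30 UMIs was 0.06 and 6592 of those 10821 genes were higher in MG53-TG. All 21 were higher in MG53-TG, 19 with a counting interval above 0, which held for 2389 of the 10821 genes. Past 1.5-fold were Asns, Nars, Lars, Sars, Mthfd2 and Aars, of which Mthfd2 and Aars reached the minimum of 50 CPM through MG53-TG alone, so that no share of the list past that fold is compared with other genes. Slc7a11, the cystine importer, had 6 WT and 97 MG53-TG UMIs (0.336 and 5.996 CPM). Phgdh and Psat1, enzymes of serine synthesis, were at 5.87 and 27.4 CPM and at 4.25 and 17.3 CPM. Trib3, a pseudokinase, was at 4.20 and 13.4 CPM, and Chac1, which degrades glutathione, at 6.38 and 16.9 CPM. Atf4 itself was at 119 and 172 CPM. Slc3a2, the shared heavy chain of amino acid exchangers, was at 160 CPM in both. The same list had medians of 0.63 in the cells below the Fabp1 limit, 1.02 in the Apoa4 and Apoc3 cells, 0.31 in the tuft gate and 0.16 in the T cell gate. The medians over all genes in these cells were 0.13, 0.13, 0.06 and 0.12, so that the value of the T cell gate was close to that of all genes there. The medians rest on different numbers of list genes with 30 UMIs, 13 in the tuft gate and 16 in the T cell gate against 21 in members. The difference between these medians was not tested.

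**Figure D4:**
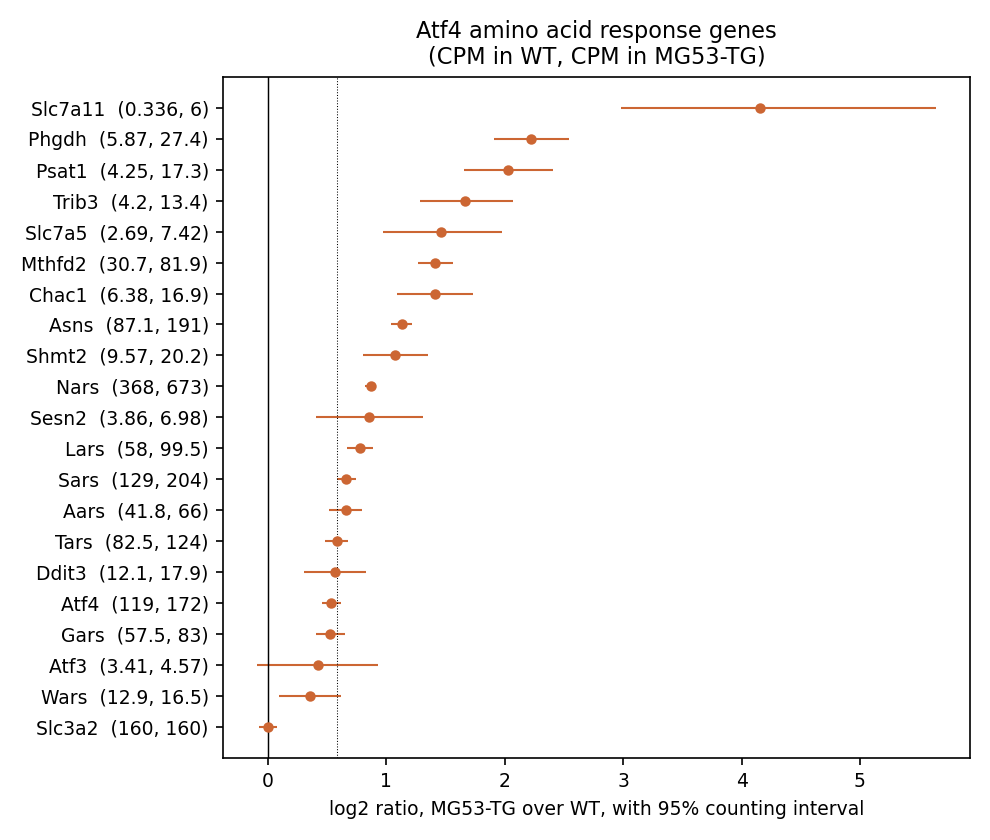
Log2 ratio of MG53-TG over WT (x axis, with 95% counting intervals) for the 21 genes of the Atf4 amino acid response list in members outside the gates, with CPM in WT and MG53-TG beside each name. Points lie above 0 for all 21 genes, Slc3a2 near 0 and Slc7a11 at 4.16, and the dotted line marks 1.5-fold.

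A sequence pattern recurred in the promoters of this list. Atf4 dimers bind composite elements of the form TGATGNAA, and this pattern was searched on both strands in RefSeq promoters of GRCm38.p6, from 250 bases before to 50 bases after the start. It occurred in 8 of the 17 list genes with an entry (47.1%) and in 1219 of 27025 genes with an entry (4.51%), or 1304 of 32851 promoters of the same length (3.97%). The list was assembled as genes of the Atf4 response, and this share does not depend on the levels measured here. Asns, Slc7a11 and Chac1 are shown because they had the pattern upstream of the start and spanned high and low levels in the members. The 250 upstream bases are given 5′ to 3′ on the strand of the gene, with the matches in capitals, at chr6:7693210-7693459 (minus strand), chr3:50443614-50443863 (minus strand) and chr2:119350992-119351241 (plus strand). A match is a description of these letters and not a measured site.
Asns: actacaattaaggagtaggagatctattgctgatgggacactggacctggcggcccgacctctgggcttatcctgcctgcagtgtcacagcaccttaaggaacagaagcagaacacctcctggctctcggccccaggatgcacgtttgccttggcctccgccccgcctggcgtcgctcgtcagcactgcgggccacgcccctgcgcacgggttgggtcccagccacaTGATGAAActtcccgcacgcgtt
Slc7a11: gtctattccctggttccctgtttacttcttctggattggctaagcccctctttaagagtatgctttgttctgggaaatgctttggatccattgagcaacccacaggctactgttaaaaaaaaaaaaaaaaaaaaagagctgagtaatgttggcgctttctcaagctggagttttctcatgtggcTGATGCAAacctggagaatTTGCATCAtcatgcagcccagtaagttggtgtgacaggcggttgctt
Chac1: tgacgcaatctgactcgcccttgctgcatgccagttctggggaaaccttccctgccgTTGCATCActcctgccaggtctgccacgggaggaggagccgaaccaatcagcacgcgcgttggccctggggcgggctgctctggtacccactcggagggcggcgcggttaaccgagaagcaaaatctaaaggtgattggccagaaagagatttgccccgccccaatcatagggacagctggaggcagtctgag
The match of Asns began 23 bases upstream of the start. Those of Slc7a11 began 66 and 47 bases upstream, on opposite strands, and that of Chac1 193 bases upstream.

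Endoplasmic reticulum folding genes were higher as well, 12 of 13, with a median of 0.36. Hspa5, the main chaperone of that compartment, was at 471 CPM in WT against 607 in MG53-TG, and Hsp90b1 at 469 and 641 CPM. None of the 8 tested passed 1.5-fold, and Xbp1 was at 116 and 115 CPM.

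Type I interferon response genes were higher in MG53-TG in 16 of 16 cases, 15 with an interval above 0 (2389 of 10821 over all genes), and the median was 0.70. All were low, and none reached 50 CPM in either library. Isg15, a ubiquitin-like modifier, was at 16.1 and 29.9 CPM, Ifit1, which binds foreign RNA, at 5.48 and 14.0 CPM, and Irf7, a factor that drives interferon genes, at 13.7 and 22.4 CPM. The UMIs were unevenly spread, since 3 cells held 42.9% of those of Ifit1 in WT and 24.7% in MG53-TG. The list median was 0.74 in the cells below the Fabp1 limit, 0.60 in the tuft gate, 0.36 in the T cell gate and 0.32 in the Apoa4 and Apoc3 cells. With cells thinned to 1354 UMIs the median in members was 0.31.

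Lists of absorptive function had smaller medians of the same sign, and their counts stand beside the 6592 of 10821 genes that were higher overall. In the vitamin A list 10 of 10 genes were higher (7 with an interval above 0, median 0.22), with Aldh1a1 at 135 and 211 CPM, Retsat, which saturates retinol, at 131 and 190 CPM, and Rbp2 at 7649 and 9790 CPM. Of 15 brush border digestive enzymes 13 were higher (median 0.20), such as the sucrase-isomaltase gene Sis at 1318 and 1685 CPM and the alkaline phosphatase gene Alpi at 91.0 and 132 CPM. Of 15 nutrient and ion transporters 13 were higher (median 0.19), with the glucose carrier Slc5a1 at 416 and 585 CPM. Of 9 fatty acid uptake and binding genes 7 were higher (median 0.21), with Fabp2 at 4302 and 6157 CPM, Acsl5, an acyl-CoA synthetase, at 398 and 583 CPM, and Slc27a2, a fatty acid transporter, at 61.4 and 94.6 CPM. Of 29 fatty acid oxidation and PPAR target genes 25 were higher (median 0.16), and Cyp4a10 was at 23.0 and 46.8 CPM. Ppara itself was at 25.8 and 26.5 CPM, a log2 ratio of 0.04 (-0.156 to 0.230). Triglyceride and chylomicron genes had a median of 0.15, with Mttp, which loads lipid onto apolipoprotein B, at 648 and 896 CPM, and Apoa1 at 6920 and 6779 CPM. MG53-TG members were also more often at the high end of the Fabp1 share. Over 13 alternatives the medians ran from 0.134 to 0.287 for vitamin A genes, from 0.138 to 0.277 for digestive enzymes, from 0.122 to 0.254 for transporters, from 0.148 to 0.294 for fatty acid uptake, from 0.0922 to 0.170 for fatty acid oxidation and from 0.0725 to 0.213 for triglyceride genes. With each Fabp1 range given equal weight, the medians were 0.16 for vitamin A genes, 0.28 for digestive enzymes, 0.18 for fatty acid uptake and 0.09 for fatty acid oxidation. They were 0.22 for transporters and 0.0725 for triglyceride genes, against 0.0794 over all genes. With these weights 29 genes were higher and 7 lower by 1.5-fold.

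**Figure D5:**
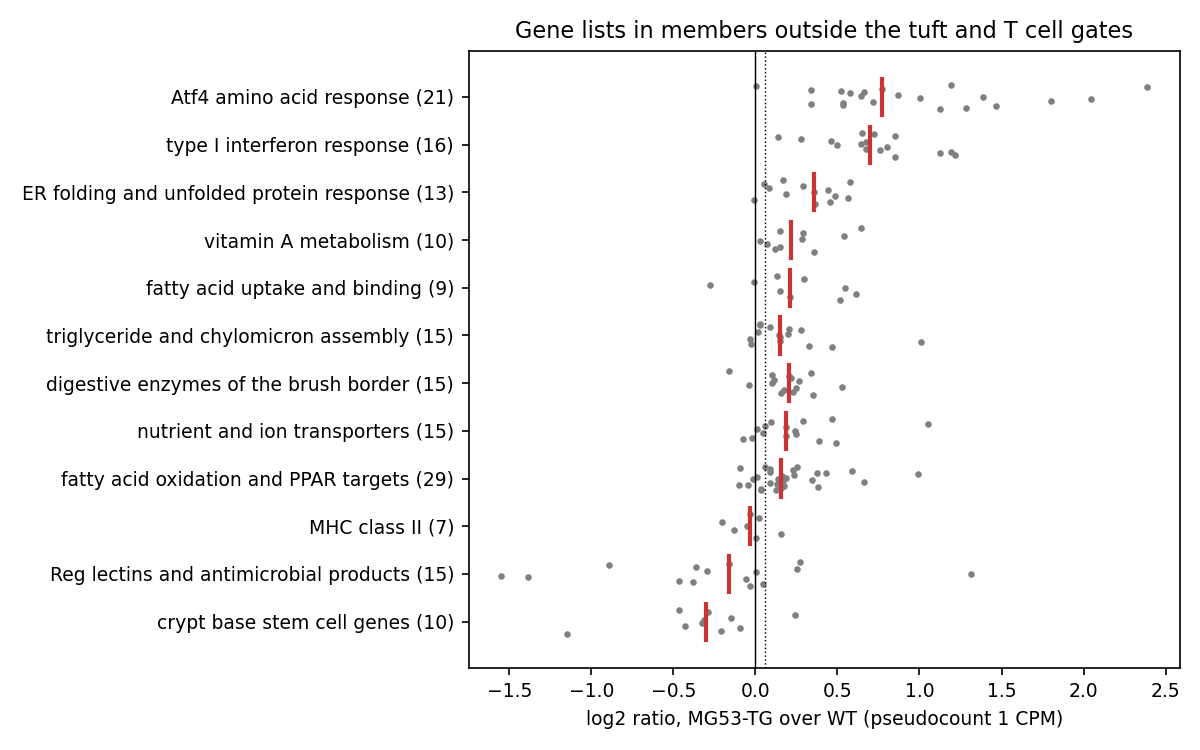
Log2 ratio of MG53-TG over WT (x axis, pseudocount 1 CPM) for the genes of 12 lists in members outside the gates, with 1 grey point per gene with at least 30 UMIs, the list median as a red bar and the number of genes in brackets. The dotted line is the median over all genes, 0.06, and the medians run from 0.77 for the Atf4 list to -0.30 for crypt base stem cell genes.

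Reg lectins and antimicrobial products differed in the other direction in 10 of 15 genes, 9 with an interval below 0 (over all genes 4229 of 10821 were lower, 1012 with such an interval), with a median of -0.16. Reg3b, a lectin that acts on bacteria and the most abundant transcript of the list, was at 43856 CPM in WT against 33766 in MG53-TG, and Reg3g at 12207 and 8846 CPM. Both were also lower in MG53-TG in cells of the T cell gate, where Reg3b was at 4584 and 2871 CPM, and the part of free RNA was not tested. Lcn2, which sequesters bacterial siderophores, was at 20.03 and 6.18 CPM and Saa1, an acute phase protein, at 4.20 and 0.989 CPM. Nos2, the inducible nitric oxide synthase, went against the list at 4.08 and 11.6 CPM, as did the cytokine gene Il18 at 272 and 329 CPM and Pigr, the immunoglobulin transporter, at 2465 and 2937 CPM. After cells were thinned to equal depth the list median was 0.03.

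The 6 named genes lower in MG53-TG were Jaml, Chgb, Itln1, Eif4ebp3, Ly6e and Ccnd1, beside a predicted gene and a defensin-like locus. Jaml, Chgb, Itln1 and Ccnd1 reached the minimum of 50 CPM through WT alone, and a gene that enters so had to be lower in MG53-TG. Jaml, a junctional adhesion protein, was at 71.3 and 27.0 CPM (-1.40, -1.56 to -1.25), and at 258 and 354 CPM in the T cell gate. Markers of T cells moved with it in the members: the 10-gene list summed to 32.3 CPM in WT against 3.77 in MG53-TG, where Cd3e and Cd3g were at 0, and their part in the result was not tested. Eif4ebp3, related to Eif4ebp1, was at 90.3 and 50.6 CPM, and Ly6e, a surface protein, at 126 and 77.8 CPM. WT empty droplets held 212 CPM of Ly6e, 559 CPM of Chgb and 80.0 CPM of Jaml, above the levels in members, and 54.7 CPM of Eif4ebp3 and 41.6 CPM of Ccnd1, and the part of free RNA was not tested. Ccnd1, a gene of the low Fabp1 range, was at 52.5 and 34.2 CPM. Chgb, a hormone granule protein, was at 72.3 and 36.0 CPM, with 68.0% and 92.1% of its UMIs in 3 cells. Itln1, a lectin of secretory cells, was at 52.8 and 27.9 CPM, at 2064 and 697 CPM in the T cell gate, and at 3139 CPM in WT empty droplets. Among the genes of the rule, the defensins Defa30, Defa17 and Defa24 and Lyz1 were lower too, and Defa24 was at 495 and 171 CPM in members against 15595 and 970 CPM in the T cell gate and 25084 CPM in the droplets.

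Crypt base stem cell genes were lower in 9 of 10 cases with a median of -0.30 at low levels (Olfm4 at 15.6 and 6.49 CPM, with 53.4% of its WT UMIs in 3 cells). After thinning the median was 0.04. Over all members without thinning it was 0.06, with 6 genes higher and 6 lower. Ribosomal protein genes were lower in 74 of 80 cases, with a median of -0.11 and none past 1.5-fold. MHC class II genes were near equal (median -0.04, 3 of 7 higher), as were nuclear genes of the respiratory chain (-0.02) and cholesterol genes (0.02). Cdkn1a, the cell cycle inhibitor p21, was at 128 and 193 CPM (0.60, 0.521 to 0.677). Areg and Ereg, ligands of the epidermal growth factor receptor, were at 1.34 and 4.57 CPM and at 0.839 and 3.71 CPM. They belong to the list of injury-induced regenerative genes, of which 3 of 6 were higher (2 with an interval above 0) and 3 lower (all 3 with an interval below 0). Of 15 absorptive transcription factors 11 were higher (median 0.16, range over the alternatives 0.0681 to 0.170), a share not far from that over all genes, with Hnf4g at 171 and 239 CPM and Maf at 145 and 206 CPM.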

How the data were processed

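The authors deposited unscaled UMI counts for each gene and barcode, made with Cell Ranger (version 4 for WT, 6.0.1 for MG53-TG, per the file headers) on mm10 from 10x 3′ v3 libraries. The WT table held 2005718 barcodes, and the lowest barcode of MG53-TG had 500 UMIs. Strand use and the handling of multi-mapped reads are not given in the sources used here, so values of near-identical families such as defensins are uncertain. Median depth after the filter was 14459 and 18209 UMIs per cell.

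Members, lists and the rule were chosen with earlier results of these data known. UMIs were summed per library and divided by their total (CPM). Shares have Clopper-Pearson intervals, levels Poisson and ratios conditional binomial intervals. Named genes were the up to 12 largest ratios each way between libraries and the 10 each way along the Fabp1 share and against neighbours, without unnamed loci and with mitochondrial genes and genes of the rule counted apart. The step was tested on simulated data. Doublets stayed in. The automatic threshold of Scrublet (scanpy 1.11.5) marked 0.0135% and 0.0388% of cells, so the alternative removed the highest scores (30 and 18 members). Alternatives varied the filters, the Fabp1 minimum, depth, scaling and pseudocount. Python 3.11.15, numpy 2.4.6, scipy 1.17.1 and pandas 2.3.3 were used. Some genes of the lists and rules are not reported here.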

Additional observations from a re-analysis of the deposited data

Results flagged for a closer look

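Between the members outside the gates and those in the tuft gate, several values had opposite signs of the log2 ratio of MG53-TG over WT. With 1 library per genotype the difference was not tested. Mt1, a metallothionein that binds zinc, had a log2 ratio of 0.62 outside the gates (2104 CPM in WT, 3228 CPM in MG53-TG) and -0.89 in the tuft gate (497 and 269 CPM). Medians of 7 lists with at least 4 genes measured in the tuft gate had opposite signs too, counting only lists for which the medians of the genes' counting bounds also lay on opposite sides of 0. Further lists had opposite signs without meeting that limit. They were 0.21 outside the gates and -0.39 in the tuft gate for fatty acid uptake and binding, 0.15 and -0.49 for triglyceride and chylomicron assembly, and 0.20 and -0.54 for digestive enzymes of the brush border. They were 0.19 and -0.87 for nutrient and ion transporters, 0.0519 and -0.19 for sugar metabolism, 0.22 and -0.74 for vitamin A metabolism, and 0.0270 and -0.13 for mitochondrial genes of the respiratory chain. With median-of-ratios scaling, the medians outside the gates turned to -0.0144 for sugar metabolism and -0.0395 for the mitochondrial respiratory genes, the sign seen in the tuft gate. Cells of the tuft gate held less enterocyte RNA than the other members, 3853 and 2556 CPM over 10 markers, which is near the 3603 and 3082 CPM of cells in the T cell gate, and the part of free RNA was not tested.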

How the results depend on the processing

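No paired analysis was possible because each genotype had 1 library. Of 130 main values recomputed under an alternative, 112 moved by no more than the limits set for them, and so did 807 of 862 further values of list medians. Ratios of single genes were not among these values. The difference in the share of members was 2.01 points, -0.0604 with a mitochondrial limit of 50% and 0.602 outside the gates. Outside the gates it was -0.779 with the 50% limit and 1.86 with a Fabp1 minimum of 1%. Over all members, 77 genes were higher and 9 lower. Thinned cells gave 146 and 17, a minimum of 10 UMIs with no CPM minimum gave 1305 and 684, and members outside the gates gave 30 higher. Outside the gates (30 and 8), thinned cells gave 115 and 22, no CPM minimum 743 and 736, a Fabp1 minimum of 1% 5 lower, and median-of-ratios scaling 20 and 9. The number of genes tested changes with these settings too. The shift of the all-gene median under it was 0.0665 outside the gates and 0.0988 over all members. Along the Fabp1 share, 2 to 4% as the highest range gave 7 and 8 genes in place of 25 and 20 outside the gates (25 and 29 over all members). Over all members, the Reg list median was -0.11 with thinned cells, the Atf4 list median 0.59 with genes of at least 20 CPM, and the ileal list median -0.0195 with a Fabp1 minimum of 1%. Outside the gates, medians turned to 0.0271 (Reg list) and 0.0431 (stem cell list) with thinned cells, and to -0.0144 (sugar metabolism) and -0.0395 (mitochondrial respiratory chain) with median-of-ratios scaling. The cause was not tested. Depth limits genes under 10 CPM, for which a few cells can hold most UMIs.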

Other observations

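Other lists are given here for the members outside the gates, where the median over all genes was 0.06 and 6592 of 10821 genes were higher in MG53-TG. Brush border structure genes were higher in 13 of 13 cases with a median of 0.13, glutathione and xenobiotic genes in 11 of 14 (0.25), tight junction genes in 11 of 12 (0.11), MHC class I and immunoproteasome genes in 9 of 11 (0.11) and p53 response genes in 6 of 8 (0.23). Calcium and iron genes had a median of 0.05, immediate early and heat shock genes 0.15, gasdermins and Nlrp6 0.14, DNA replication genes 0.11, mitosis genes -0.09, Notch and secretory fate genes -0.03 and injury-induced regenerative genes 0.05. By region, ileal genes had a median of 0.29 over 5 genes, proximal small intestine genes 0.15 over 6 and colon genes 0.06 over 5. In the tuft gate the Reg list median was -1.10 and that of MHC class II genes -1.58.

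Cells above the mitochondrial limit that met the rest of the rule were few, 49 of 3755 in WT and 59 of 4402 in MG53-TG. Tuft gate cells were members in 40.9% of WT and 48.3% of MG53-TG cases, a difference of 7.45 points (-0.581 to 15.4).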
